A study of Drosophila melanogaster with 3 samples.

Results

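Su(var)3-7-GFP enrichment was examined inside genes that are transcribed into RNA but encode no protein. Of the 30000 relaxed regions listed for the pooled replicates, 583, or 1.94%, had their summit inside a gene annotated as non-coding RNA (ncRNA), inside no protein-coding gene and more than 500 bp from every protein-coding start site. The 91 of them that overlapped a peak of the thresholded list are called thresholded here, and the other 492 are called weaker. Position alone chose the 583 regions from the list, and their signal was not used in that step. The 91 include regions that only overlap a peak, with signals down to 35.9, while the weaker ones reach 118.5.

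The data were chromatin immunoprecipitation followed by sequencing (ChIP-seq) from whole Drosophila melanogaster embryos, given as peak lists on genome build dm6. A single group was deposited, with 3 biological replicates of mixed-sex embryos aged 0 to 24 h from 1 transgenic line. The line carried Su(var)3-7 with green fluorescent protein (GFP) at its C terminus, and the tagged protein was pulled down with an antibody against GFP. A listed region therefore averages all cell types and stages of embryogenesis, and no label names the promoter that drives the transgene. The authors gave each region a signal on a scale that is not stated, and the depth of sequencing is unknown.

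Su(var)3-7 is a zinc-finger protein known as a partner of heterochromatin protein HP1 and named because loss of its gene suppresses position-effect variegation, the patchy silencing of a gene placed next to heterochromatin. Long non-coding RNAs are RNA polymerase II transcripts without a long open reading frame. In flies they include the roX RNAs of the dosage compensation complex, precursors of microRNAs and of piRNAs, and host transcripts of small nucleolar RNAs (snoRNAs). Most carry only an annotation number and have no assigned role, so the genes below named CR and a number are known here by position alone.

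The sequences at the summits of the strongest thresholded regions are shown first, because the first 6 had the highest signals inside ncRNA genes among those on arms 2L, 3L, 3R and X. Each run is the RefSeq reference (dm6, plus strand, 5′ to 3′) over a summit and the 100 bases on either side, with the bases in capitals where a searched motif was found. Masking of the reference is not shown. The last one, shown as a well-studied gene, belongs to Hsromega, the gene of the heat-shock omega transcripts that organise nuclear omega speckles.
Vinr, chrX:12751302-12751502: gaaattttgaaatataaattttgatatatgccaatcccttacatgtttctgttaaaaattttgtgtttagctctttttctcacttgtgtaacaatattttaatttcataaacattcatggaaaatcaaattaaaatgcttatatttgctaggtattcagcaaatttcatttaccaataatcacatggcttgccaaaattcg
CR44619, chrX:12752262-12752462: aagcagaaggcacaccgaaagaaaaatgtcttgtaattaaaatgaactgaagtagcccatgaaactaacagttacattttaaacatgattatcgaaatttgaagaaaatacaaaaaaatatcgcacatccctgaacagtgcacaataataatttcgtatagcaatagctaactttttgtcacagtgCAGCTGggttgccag
CR31840, chr2L:14023983-14024183: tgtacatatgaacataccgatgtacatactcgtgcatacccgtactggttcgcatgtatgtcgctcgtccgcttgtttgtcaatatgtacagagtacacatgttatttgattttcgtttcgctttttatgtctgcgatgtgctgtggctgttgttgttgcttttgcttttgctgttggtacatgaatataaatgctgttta
CR44919 and CR44917, chr2L:21867382-21867582: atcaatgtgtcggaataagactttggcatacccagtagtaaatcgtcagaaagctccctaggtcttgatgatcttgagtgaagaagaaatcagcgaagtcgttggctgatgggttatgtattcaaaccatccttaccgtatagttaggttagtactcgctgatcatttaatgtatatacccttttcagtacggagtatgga
CR43626, chr3L:3250191-3250391: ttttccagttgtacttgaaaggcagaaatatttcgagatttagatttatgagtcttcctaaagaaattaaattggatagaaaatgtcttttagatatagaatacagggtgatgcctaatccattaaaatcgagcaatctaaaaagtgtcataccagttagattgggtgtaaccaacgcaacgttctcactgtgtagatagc
CR43334, chr3L:634762-634962: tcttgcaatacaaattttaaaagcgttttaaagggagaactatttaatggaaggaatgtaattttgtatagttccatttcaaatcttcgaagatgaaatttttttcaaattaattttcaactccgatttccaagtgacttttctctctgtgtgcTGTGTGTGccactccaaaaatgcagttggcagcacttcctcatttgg
Hsromega, chr3R:21297599-21297799: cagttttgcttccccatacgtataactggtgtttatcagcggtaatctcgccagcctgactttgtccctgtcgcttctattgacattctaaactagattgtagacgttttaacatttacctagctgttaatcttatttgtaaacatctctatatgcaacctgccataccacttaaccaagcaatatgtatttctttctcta
The summit sequence of Vinr had a GC content of 25.9% and held none of 12 searched motifs. CR44619 held 1 E-box (CAGCTG), and CR43334 held a CA repeat read on the other strand. None of these 7 sequences held the CTCF core or the DRE element described below.

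The core AGGTGGCG of the site of CTCF, an insulator protein, had the highest ratio of its share in thresholded to that in weaker regions among the searched motifs with 4 or more thresholded matches. The 4 thresholded regions that held it are shown for that reason, chosen after their values were seen, with the core in capitals.
CR43838, chrX:20760515-20760715: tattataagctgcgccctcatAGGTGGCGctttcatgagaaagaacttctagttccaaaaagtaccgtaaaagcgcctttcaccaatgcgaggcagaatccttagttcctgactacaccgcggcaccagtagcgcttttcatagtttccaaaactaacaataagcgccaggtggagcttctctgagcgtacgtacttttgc
CR44357, chrX:7242014-7242214: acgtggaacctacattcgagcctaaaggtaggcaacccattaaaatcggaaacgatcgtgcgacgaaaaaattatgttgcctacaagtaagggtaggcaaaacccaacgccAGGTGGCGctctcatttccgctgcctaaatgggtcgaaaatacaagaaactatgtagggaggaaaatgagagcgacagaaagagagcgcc
CR43459, chr3R:10100667-10100867: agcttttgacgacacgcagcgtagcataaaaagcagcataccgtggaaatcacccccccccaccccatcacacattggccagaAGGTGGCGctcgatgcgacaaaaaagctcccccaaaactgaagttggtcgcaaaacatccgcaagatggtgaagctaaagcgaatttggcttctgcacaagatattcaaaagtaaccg
CR45677, chr3L:20395375-20395575: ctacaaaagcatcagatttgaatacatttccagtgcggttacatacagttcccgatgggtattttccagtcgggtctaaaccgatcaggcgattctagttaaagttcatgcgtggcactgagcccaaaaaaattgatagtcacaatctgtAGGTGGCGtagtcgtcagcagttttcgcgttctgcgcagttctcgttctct
The core was found in 4 of 91 thresholded regions (4.40%) and in 8 of 492 weaker ones (1.63%). Over the replicates, the shares were 4.13 ± 0.368% and 0.976 ± 0.341% (SD, n = 3). Among all 30000 listed regions 1.08% held it, and among thresholded intergenic regions 3.14% did. A match of letters is not a binding site, and 4 regions are few.

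The strongest signal inside any ncRNA gene lay on the X chromosome in a pair of overlapping genes on the same strand. In an exon of Vinr, an RNA named for its induction by virus, the region chrX:12751119-12751639 had a pooled signal of 2106 and was the ninth strongest of the whole list (rank 9). Its signal was 35.5, 36.5 and 28.7 times the list median in replicates 1, 2 and 3, a mean of 33.6 ± 4.24 (SD, n = 3). The next strongest region, chrX:12752158-12752551, had its summit 960 bp away in an exon of CR44619, with 23.6, 26.6 and 23.7 times the median. CR44619 held a second thresholded region near its end, with a pooled signal of 312.5 and 3.53, 6.14 and 5.31 times the median. The protein-coding start nearest to the Vinr summit, that of CG4004, was 5085 bp away. These 3 regions were thus high in each replicate, and the lowest replicate of Vinr stood above the highest of CR44619's stronger region.

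The third strong site had its summit at the start of a short gene. CR31840 is 378 bp long on chromosome 2L (chr2L:14023722-14024099, minus strand), and the summit of its region lay 16 bp from its annotated start and 2918 bp from the start of hll. The pooled signal was 1465, and the replicates gave 18.4, 29.4 and 20.4 times the list median (mean 22.7 ± 5.88, SD, n = 3). Replicate 2 was well above the other replicates here. Only these 3 of the 91 thresholded regions exceeded a signal of 1000, against 68 of 4953 thresholded regions over the whole list. The counts were 6 of 606 for thresholded intergenic, 17 of 1553 for deep intronic and 41 of 2575 for start-site regions. With the summits of Vinr and CR44619 only 960 bp apart, 3 regions are too few to read as an excess.

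**Figure D1:**
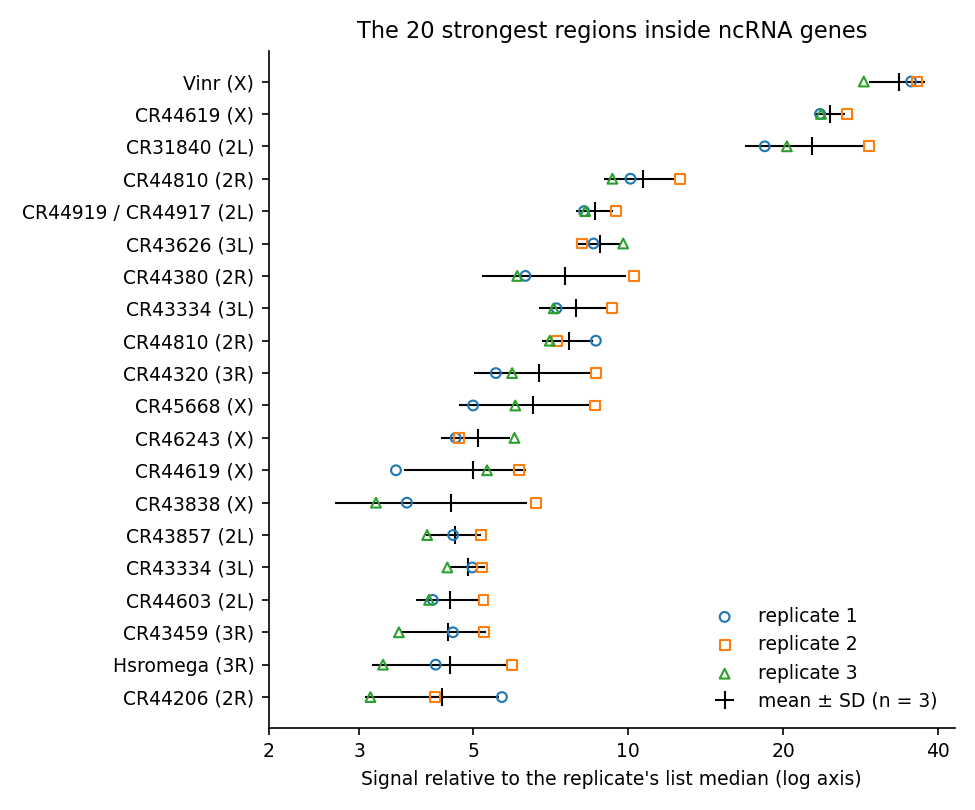
Signal of the 20 strongest regions inside ncRNA genes, each divided by the median of the replicate's own list (x axis, log scale), with the chromosome arm in parentheses. Circles, squares and triangles are replicates 1, 2 and 3, and the bar is the mean ± SD (n = 3). Vinr, CR44619 and CR31840 stand apart at means of 33.6, 24.7 and 22.7, and the next region is at 10.7.

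Below these 3, no region exceeded a signal of 684. The region of CR44810 on 2R (chr2R:24329426-24329746) had that signal and a mean of 10.7 ± 1.71 times the list median, and a second region of the same gene had 488.5. Its summits were 4516 and 6342 bp from slbo, which encodes the C/EBP transcription factor of border cell migration. A summit shared by the overlapping genes CR44919 and CR44917 had a signal of 553 and lay 30807 bp from the nearest protein-coding start. CR43626 had 551 and CR44380 502, and all 5 of these regions were among the strongest 4055 in each of the 3 replicates.

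Further down the 20 strongest, CR44320 had a signal of 434, CR46243 of 316, CR43838 of 301, CR44603 of 289 and CR44206 of 281. CR46243, a gene of 375 bp, had its summit 142 bp from its start and 9331 bp from the start of Myc, the growth-promoting transcription factor. In these 5 the mean over replicates ran from 4.35 ± 1.27 to 6.71 ± 1.70 times the list median. At the threshold itself, the weakest members identical to a thresholded peak were in TS2 (119.8), CR45451 (120.3) and CR45668 (120.5). The strongest regions left outside were in CR44274 (118.5), CR45668 (118.3) and CR44584 (117.8). The values on either side of the threshold thus differed by less than 3 units of signal.

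Several thresholded regions lay in genes that hold or adjoin microRNA genes. CR43334 on 3L contains mir-ban, the gene of the bantam microRNA that promotes growth and blocks cell death. It held 18 listed regions, 5 of them thresholded, of which the one with a signal of 104.5 only overlapped a peak. The strongest region of the gene had a signal of 500 and 7.25, 9.29 and 7.16 times the list median. That summit was 6427 bp from the gene's start, and the region nearest to mir-ban, 458 bp away, had a signal of 35.3, near the bottom of the list. No thresholded summit of this gene lay within 500 bp of its microRNA.

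CR43857 on 2L had a thresholded region of signal 294 whose summit was 435 bp from mir-275, with 4.56, 5.18 and 4.06 times the list median. A fainter listed region that overlapped the same peak was 228 bp from mir-275 and 405 bp from mir-305. CR43459 on 3R had a weaker region 413 bp from mir-277, and a thresholded one of signal 175.5 whose summit was 169 bp from mir-34. Its replicate values of 1.33, 3.49 and 2.74 times the median were uneven, with replicate 1 low. The strongest region of that gene had a signal of 283 and 4.56, 5.24 and 3.58 times the median. In all, 4 of 91 thresholded and 12 of 492 weaker regions had their summit within 500 bp of a microRNA gene. Among the thresholded ones, the fainter region of CR43857 (63.9) only overlapped a peak. So did a region of CR45478 with a signal of 44.4, 324 bp from mir-2496. No count over all listed regions stands beside these, so they are a description only.

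Among the studied RNAs, Hsromega, Vinr and acal held the summit of a thresholded peak open to the rule. In Hsromega, all 4 listed regions were thresholded and lay in the first 1780 bp of a gene of 21710 bp. The strongest (chr3R:21297487-21297910) had a signal of 283 and 4.22, 5.94 and 3.34 times the list median. A second had its summit 237 bp from the gene's start, with a signal of 229 and 2.99, 3.66 and 3.799 times the median. The other regions, of 57.8 and 37.6, were thresholded only because they overlapped the flanks of these peaks.

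The acal transcript, which acts on JNK signalling in dorsal closure of the embryo, had 1 thresholded region of signal 184, with 2.94, 3.24 and 2.24 times the list median. In contrast, roX1 held 3 regions with signals of 49.2 to 94.7 and roX2 held 2 with signals of 43.2 and 65.4, and none was thresholded. The best region of roX1 stood at 0.939, 2.16 and 0.804 times the list median, so replicate 2 alone was high. The bithoraxoid transcript bxd held 3 regions, the best with a signal of 110 and 1.38, 2.13 and 1.43 times the median. Regions in the roX genes and bxd were thus listed but weak.

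The listed regions of the snoRNA host genes lay within 500 bp of their starts. Uhg3 had 1 region of 110.0, with its summit 45 bp from the start, and Uhg2 had 1 of 60.1. The regions of Uhg1 (51.2) and Uhg5 (95.1) counted as thresholded through peaks of 137 and 175 within 500 bp of their starts, whose summits lay outside the rule. Uhg4 held no region, but a thresholded peak of signal 523.5 lay within 500 bp of its start. Likewise, flam, the precursor of piRNAs that silence mobile elements in the ovary, had no region in its 158841 bp and a thresholded peak of 206 within 500 bp of its start. No region with a summit open to the rule was found in iab8, let7C, cherub, Uhg8 or CR33938. The genes iab4, Uhg7, CRG, yar, noe and sphinx had no base outside protein-coding genes and their start windows, and 20A, PRE30, bft, msa, MRE16 and pncr009:3L were not found in the annotation under those names.

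**Figure D2:**
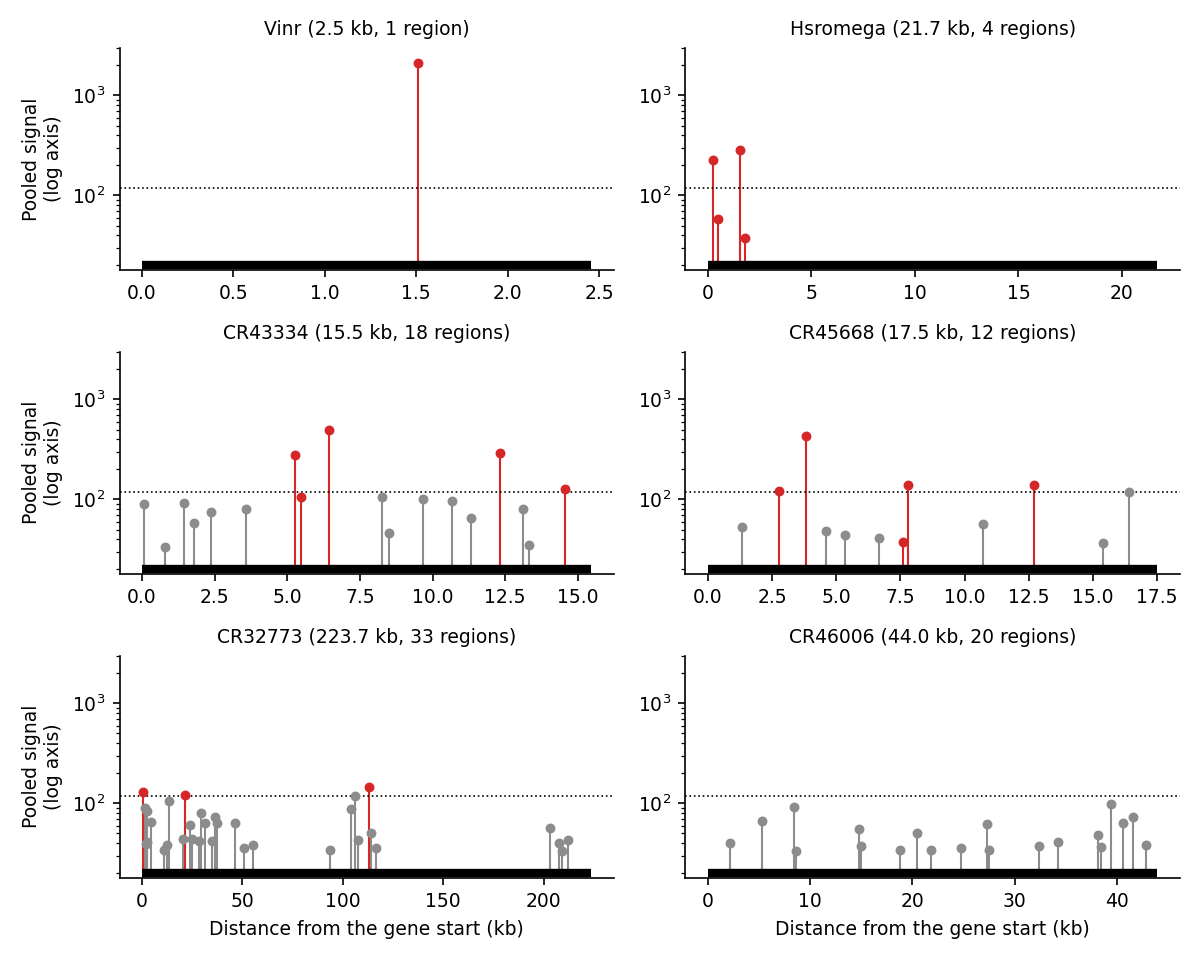
Listed regions along 6 ncRNA genes, by distance of the summit from the annotated gene start in kb (x axis) and pooled signal (y axis, log scale). Red marks thresholded regions, grey marks weaker ones, the black bar is the gene and the dotted line is the signal of the weakest thresholded peak, 118.8, below which a red region only overlaps a peak. Hsromega's regions lie at its start, those of CR43334 and CR45668 are spread along the gene, and CR46006 holds 20 regions with none above the line.

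The genes with most listed regions held from 0 to 5 thresholded ones. CR32773 on the X chromosome, 223710 bp long, held 33 regions, of which 3 were thresholded, the best with a signal of 145.5. CR46006 on 3L held 20 regions and none was thresholded, with signals up to 97.9, although 1 of its regions was 182 bp from mir-276a. CR44833 held 14 regions and 1 thresholded one, 1566 bp from the start of ovo, which encodes a germline and epidermal transcription factor. CR43650 on 2R, whose region 299 bp from mir-8 had a signal of 37.3, held 12 regions with 2 thresholded, and CR45668 held 12 with 5 thresholded. The thresholded regions of 109.9 in CR43650 and of 37.1 in CR45668 only overlapped a peak. The strongest of CR45668 had a signal of 427 and lay 4709 bp from the start of Act5C, a cytoplasmic actin gene.

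Across the annotation, ncRNA genes with a listed region were a minority. Of 3304 annotated ncRNA genes, 1763 had at least 1 base open to the rule, 317 held a region and 60 held a thresholded one. A single region was found in 219 genes, and 21 genes held 5 or more. Of the genes with a region, 297 carried an lncRNA name, with 58 of the 60 that held a thresholded region. Antisense RNA genes had 13 members with a region and none with a thresholded one, against 60 of 317 over all ncRNA genes with a region. A count of 0 among 13 genes is too small to read as a difference. The genes with a region were longer (median 1192 bp) than the open genes without one (560 bp), and a long gene has more bases in which a summit can fall. Of 793 genes under 200 bases, 3 held a region and 0 held a thresholded one, and 3 genes are too few to read that 0. In all, 18 regions lay in more than 1 ncRNA gene.

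The first comparison asked whether a region inside an ncRNA gene was more often thresholded than regions at other positions. It was not more often thresholded than the list as a whole. Of the 583 regions 91 (15.6%, 95% Wilson interval 12.9 to 18.8%, covering counting of regions only) overlapped the thresholded list, against a background of 16.5% of all pooled regions. When a replicate's own strongest 4055 regions took the place of the thresholded list, 100 of 569, 88 of 568 and 78 of 572 regions were strong in replicates 1, 2 and 3. These shares of 17.6, 15.5 and 13.6% stood against backgrounds of 16.7, 16.6 and 16.4%. The mean of 15.6 ± 1.97% (SD, n = 3) thus fell within 1 SD of the background.

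The share was set against those of the positions most like it. Intergenic regions over 500 bp from protein-coding starts were strong in 13.1 ± 0.540% and deep intronic regions in 15.2 ± 0.588% (SD, n = 3 each). The share in ncRNA genes was higher than the intergenic one by 4.60, 1.83 and 1.04 percentage points in replicates 1, 2 and 3. The mean difference of 2.49 ± 1.87 points had p = 0.25 in an exact two-sided permutation test of signs, the smallest p that 3 replicates allow, so the design cannot reach 0.05. Against deep intronic regions the differences were 2.78, -0.393 and -1.33 points (mean 0.354 ± 2.15, exact permutation p = 1). The ncRNA-gene share thus was higher than the intergenic share in every replicate, and neither higher nor lower than the intronic share in all of them. Without replicate 1, counting the regions strong in both other replicates, the pooled excess over intergenic regions fell from 2.74 to 0.517 points, and without pericentric sequence and chromosomes 4 and Y it was 1.06 points.

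**Figure D3:**
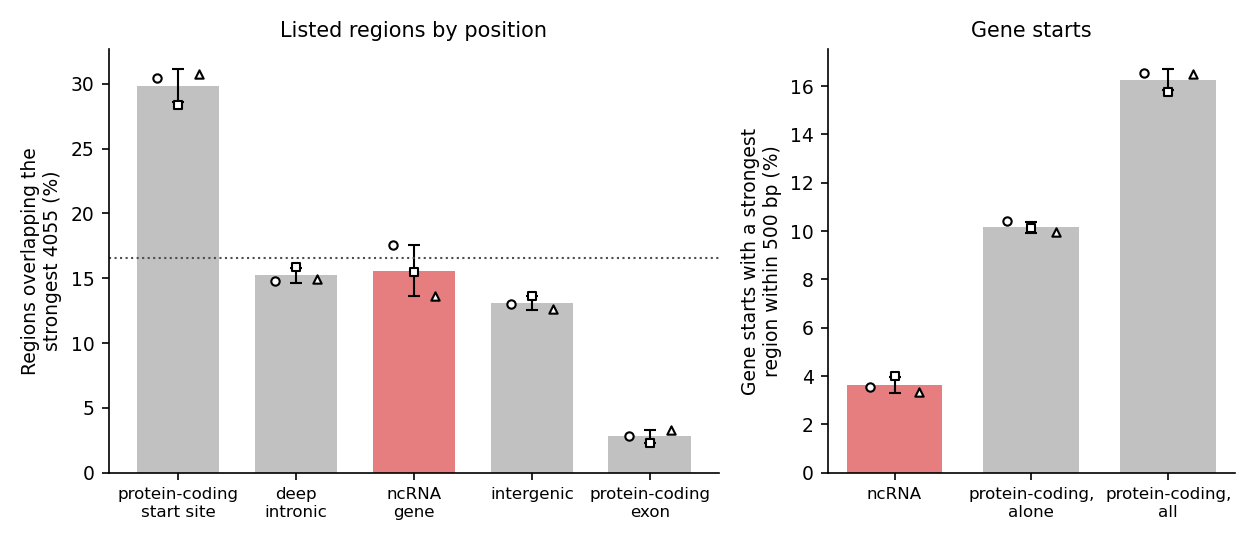
Left, the share of listed regions at each position that overlapped the strongest 4055 regions of their replicate; right, the share of annotated gene starts with such a region within 500 bp. Bars are means with SD over 3 replicates, symbols are replicates 1 (circle), 2 (square) and 3 (triangle), and the dotted line is the mean over all listed regions. Regions in ncRNA genes, at 15.6%, stand between the intergenic and start-site shares, while ncRNA gene starts, at 3.63%, stand below protein-coding starts that are alone, at 10.2%.

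Per length of sequence, ncRNA genes held more listed regions than the space between genes. The 2.64 Mb open to the rule held 221 regions and 34.5 thresholded regions per Mb. The 37.3 Mb of intergenic sequence held 126 and 16.3, and the 52.6 Mb of deep introns held 191 and 29.5. In each distance class beyond 2 kb from a protein-coding start, the mean share of strong regions was higher in ncRNA genes than between genes. Over 5 to 10 kb from a protein-coding start, 16.3 ± 1.34% of regions in ncRNA genes were strong, against 11.6 ± 0.481% of intergenic and 14.9 ± 0.470% of intronic ones (SD, n = 3). From 500 to 1000 bp the order was turned, with 15.3 ± 3.38% against 21.3 ± 2.61% and 22 ± 1.65%, on 43 regions in ncRNA genes in the pooled list. Pericentric sequence was not left out of these values, and it held 1098 of 4104 weaker intergenic and 45 of 492 weaker ncRNA-gene regions. Among thresholded regions it held 42 of 606 intergenic and 3 of 91 ncRNA-gene ones. Without it and chromosomes 4 and Y, the pooled excess in share over intergenic regions was 1.06 points, against 2.74 with them.

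Pooled signal gave a like picture, which is no separate support for the shares. Peaks inside ncRNA genes were set apart from the other regions by this same value, between 118.5 and 119.8. The median pooled signal of the 583 regions was 52.8, against 52.9 in the whole list, 49.6 in intergenic, 52.2 in deep intronic and 68.2 in start-site regions. At the upper end, the 90th percentile was 134, against 124 for intergenic and 138 for deep intronic regions. Among thresholded regions alone the median was 145.5 in ncRNA genes and 157.9 in intergenic sequence.

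**Figure D4:**
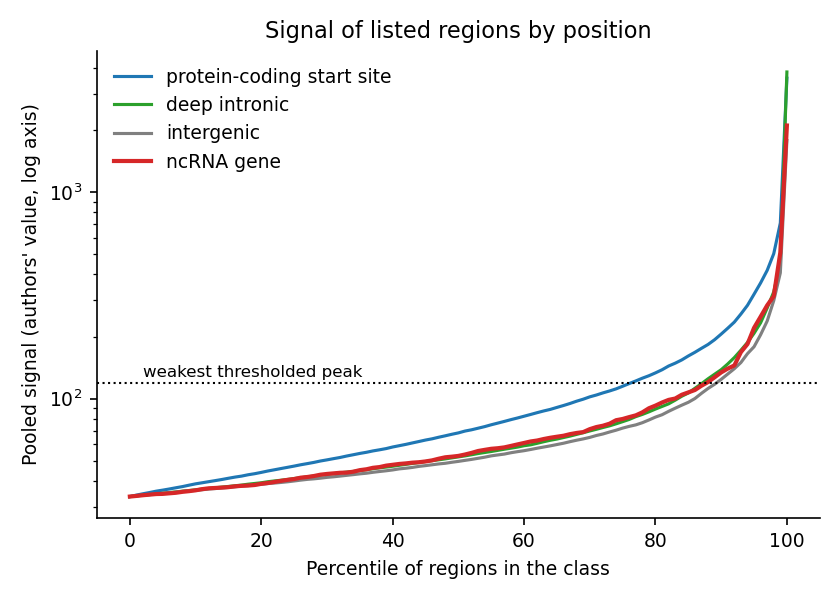
Pooled signal (y axis, log scale) by percentile of the regions at each position (x axis). The curve of ncRNA genes (red) runs on that of deep introns up to the 90th percentile, where they stand at 134 and 138, below protein-coding start sites at 205.5.

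The thresholded list was derived with a measure of agreement between replicates (irreproducible discovery rate, IDR), so the support of its regions by the replicates is a description. Inside ncRNA genes its peaks all had a pooled signal of 119.8 or more, and every other region had 118.5 or less. A place on the list thus does not show that the replicates agreed on that region. Of the 91 thresholded regions, 52 (57.1%) were among the strongest 4055 of all 3 replicates, 25 of 2 and 14 of 1. The share in all 3 was 61.3% over all thresholded regions and 57.9% over intergenic ones. Of the 492 weaker regions, 452 were strong in no replicate. In 72 of the 91 the listed region was itself a thresholded peak, and these made up 1.78% of the 4055 peaks. The other 19 only overlapped a peak, which in 14 cases was another of the 72 and in 5 cases was none of them. Where a region was matched in a pair of replicates, the rank correlation (Spearman) was 0.655 for replicates 1 and 2 over 293 regions, 0.651 for 1 and 3 over 276, and 0.690 for 2 and 3 over 270. These describe regions of shared libraries.

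The next question was where in the ncRNA gene the thresholded regions lay. The median distance to the gene's start was 983 bp for thresholded and 1130 bp for weaker regions. Of the thresholded regions 31.9% had their summit within 500 bp of the start of an ncRNA gene that held it, against 32.7% of the weaker ones. In replicates 1, 2 and 3 the thresholded minus weaker difference was -0.277, 9.68 and -3.98 percentage points (mean 1.81 ± 7.06, exact permutation p = 1), and the sign was not the same in all of them. When thresholded meant strong in both replicates of a pair, leaving out replicate 1, 2 or 3, the differences were 8.18, 4.39 and 0.838 points over 55, 63 and 66 such regions. For the start of any annotated transcript of the gene, the share within 500 bp was higher for thresholded regions by 4.74, 16.9 and 2.09 points in the replicates (mean 7.91 ± 7.89, exact permutation p = 0.25). Neither difference passed the test, which cannot go below 0.25 here. Exons held 71.4% of thresholded and 67.9% of weaker regions, a difference of 0.968, 3.86 and 10.3 points in the replicates (mean 5.05 ± 4.79, exact permutation p = 0.25). That difference was turned, to -14.7 points, when only the strongest region of each gene was kept, and ran from 1.42 to 12.2 points with regions strong in both replicates of a pair.

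The starts of ncRNA genes themselves, taken over the annotation, were seldom marked. This comparison was chosen after the values were seen. Of 1376 ncRNA gene starts outside protein-coding genes and over 1000 bp from any protein-coding start, 47 (3.42%) had a thresholded peak within 500 bp and 307 (22.3%) had any listed region. Of 6752 protein-coding gene starts with no start or body of another protein-coding gene within the same limits, 715 (10.6%) had a thresholded peak and 40.3% a listed region. In replicates 1, 2 and 3 the shares with a strong region were 3.56, 4.00 and 3.34% for ncRNA starts and 10.4, 10.1 and 9.95% for lone protein-coding starts. The difference of 6.52 ± 0.367 points (SD, n = 3) had p = 0.25 in the exact permutation test, the smallest possible. Over all 13945 protein-coding gene starts the share was 16.3 ± 0.430%. Transcription of the genes in these embryos was not measured, and its part in the difference was not tested.

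In each replicate, the thresholded regions inside ncRNA genes lay less often in heterochromatic sequence next to the centromeres than the weaker ones. Pericentric sequence held 3 of 91 thresholded regions (3.30%) and 45 of 492 weaker ones (9.15%). The thresholded minus weaker difference was -6.87, -8.54 and -3.51 percentage points in the replicates (mean -6.31 ± 2.56, exact permutation p = 0.25). The whole list behaved alike, with 1.88% of thresholded and 10.1% of weaker regions in pericentric sequence and a difference of -6.71 ± 0.312 points over the replicates. Between genes the shares were 6.93% and 26.7%, and in deep introns 1.10% and 12.2%. Annotated mobile elements held the summit of 0 of 91 thresholded regions, which allows a share of up to 3.30%, and of 10 of 492 weaker ones (2.03%), against 0.646% and 2.40% over the whole list. On chromosome 4, which is largely heterochromatic, 0 of 15 regions in ncRNA genes were thresholded, which allows a share of up to 20%. Of all 352 listed regions on that chromosome 6.82% were.

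The share of thresholded regions varied between the arms. On 2R, 24 regions (23.8%) were thresholded, and the replicates gave 25, 23.1 and 20%, against 15.7 ± 0.388% of all listed regions of that arm. The excess over the arm was 6.97 ± 2.32 points (SD, n = 3, exact permutation p = 0.25). On 3L, 13 of 134 regions were thresholded (9.70%), with 13.8, 9.35 and 9.02% in the replicates against 15.3 ± 0.264% of the arm. The lowest replicate of 2R thus stood above the highest of 3L, whereas all listed regions of these arms stood at 15.7 and 15.3%. By genes, 17 of 62 ncRNA genes with a region on 2R and 8 of 75 on 3L held a thresholded one, and CR46006 alone gave 20 of the 134 regions on 3L. On the X chromosome 12 of 39 genes did, a higher share of genes (30.8%) than on 2R (27.4%), while the share of its regions was 15.3 ± 4.77% against 17.1 ± 0.350% of the arm. On 3R the share of regions was below that of the arm in each replicate, by a mean difference of -2.83 ± 1.39 points (exact permutation p = 0.25). Some thresholded regions on 2R, such as those of Uhg5 (95.1) and CR44466 (64.8), only overlapped a peak. When the interval and summit had to be those of a peak, the pooled difference between 2R and 3L fell from 14.1 to 7.63 points. Arms 2R and 3L were singled out after the values were seen.

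**Figure D5:**
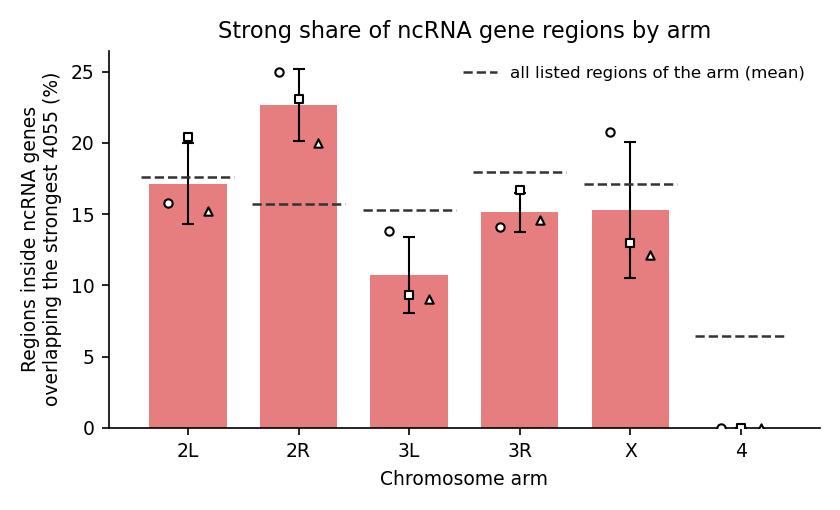
Share of regions inside ncRNA genes that overlapped the strongest 4055 regions of their replicate (y axis), by chromosome arm. Bars are means with SD over 3 replicates, symbols are replicates 1 (circle), 2 (square) and 3 (triangle), and dashed lines are the mean share over all listed regions of the arm. Arm 2R, at 22.7%, stands above its line, 3L, at 10.7%, below it, and chromosome 4 is at 0.

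Base composition followed the rest of the list, to a smaller degree. The median GC content within 100 bases of the summit was 39.8% in thresholded and 43.8% in weaker regions. Over the replicates the difference was -3.32 ± 1.25 percentage points (SD, n = 3), against -6.14 ± 0.287 over all listed regions and -3.81 ± 0.287 over intergenic ones. The DRE element (TATCGATA), the site of the promoter factor DREF, was found in 2 of 91 thresholded regions, in CR44357 and on the flank of the Hsromega peak, and in 0 of 492 weaker ones, which allows a share of up to 0.610%. In the replicates the shares were 1.57 ± 0.866% and 0.208 ± 0.00540% (exact permutation p = 0.25 for the difference). Over all listed regions 2.03% held it, and 7.92% of thresholded start-site regions did. The E-box was found in 2.20% of thresholded and 7.52% of weaker regions of the pooled list, in 5.18 ± 1.80% and 8.37 ± 1.34% over the replicates, and in 11.6% of all listed regions. The GAGA repeat (GAGAGAG) was found in 5.49% and 3.25%, with 5.13 ± 2.86% and 5.06 ± 0.480% over the replicates and 3.87% of all listed regions. Of the other motifs, the adenine run was found in 15.4% of thresholded and 13.4% of weaker regions, the GATA site in 6.59% and 9.15%, and the CA repeat in 6.59% and 5.28%, against 10.6%, 9.70% and 4.41% of all listed regions. The Zelda site was found in 1.10% and 1.63%, the Su(Hw) core in 1.10% and 1.22%, and the AT repeat in 1.10% and 1.42%, against 1.30%, 0.813% and 1.64% of all listed regions. The Motif 1 core and the Grainyhead site were in 0 of 91 thresholded regions, which allows a share of up to 3.30%, and in 0.813% and 0.407% of weaker ones and 1.59% and 0.280% of all listed regions.

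Thresholded peaks inside ncRNA genes often had close neighbours, as peaks at other positions did. Of the 72 peaks, 26 (36.1%) had another thresholded peak within 2 kb, against 32.0% of intergenic, 36.0% of deep intronic and 31.2% of all peaks. Overlapping listed peaks were counted as neighbours too, such as those of CR44380 with summits 199 bp apart and of CR32636 with summits 215 bp apart. Some neighbours may thus be summits of the same site.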

How the data were processed

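ChIP-seq of 3 biological replicates in 1 group was analysed from the deposited dm6 lists: 30000 relaxed regions per replicate, 30000 for the replicates pooled, and 4055 thresholded peaks. The signal of each region is the authors' value on an unstated scale. The thresholded list was derived by the irreproducible discovery rate (IDR), a method for selecting regions that rank alike between replicates, per the deposited inventory texts. Its threshold, the peak caller, the aligner and the read filters are not stated there or in the labels. Read depth is unknown, and control reads were not analysed here. The labels do not say what separated the replicates, so spreads may be technical. Genes came from Ensembl release 115 (BDGP6, version 6.54), whose ncRNA class includes microRNA and other short genes, and sequence from the RefSeq genome of the same build.

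A region was thresholded if it overlapped a thresholded peak by 1 bp or more, and in a replicate if it overlapped its strongest 4055 regions. A region's replicate value was the strongest signal with a summit within 200 bp, divided by the median of that list, so close regions can share a value. Differences over the 3 replicates were tested by an exact two-sided permutation of signs (8 patterns, smallest p 0.25). Pericentric sequence began at 22 Mb on 2L and X and at 23 Mb on 3L, and ended at 5.7 Mb on 2R and 4.2 Mb on 3R.

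Around each summit, 100 bp to a side, 12 motifs were sought on either strand. Those of 8 letters were the DRE element (TATCGATA), Motif 1 core (GGTCACAC), CTCF core (AGGTGGCG), Su(Hw) core (GCATACTT), Grainyhead site (AACCGGTT), CA repeat (CACACACA), AT repeat (ATATATAT) and adenine run (AAAAAAAA). The shorter ones were GAGAGAG, the repeat bound by GAGA factor, then the site of the early activator Zelda, CAGGTAG, the E-box CAGCTG of helix-loop-helix proteins, and the GATA-factor site spelled GATAAG. No motif contains another.

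The regions, lists and tests were chosen with earlier results of these data known. Named genes were those of the 20 strongest regions, the 5 genes with most regions, a list of studied ncRNAs, and the 3 regions on each side of the threshold. Sequences were those of the 6 strongest thresholded regions and of studied genes, leaving out arm 2R. CR44357, CR45677, CR43650, the gene starts, the arms and the CTCF core were added after values were seen. Scripts were tested on simulated data. Software was Python 3.11.15 with NumPy 2.4.6, pandas 2.3.3, SciPy 1.17.1 and matplotlib 3.10.9.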

Additional observations from a re-analysis of the deposited data

How the results depend on the processing

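The share of regions in ncRNA genes that were thresholded, 15.6%, became 12.3% when the interval and summit had to be those of a peak, 8.23% against the 2027 strongest peaks, 19.2% with only the strongest region of each gene, a rise that keeping the strongest builds in, and 9.43 to 11.3% with regions strong in both replicates of each pair, the setting used to leave a replicate out. The excess over intergenic regions, 2.74 points, was 0.517 without replicate 1 and otherwise 1.06 to 3.41; with 1 region per gene on the ncRNA side alone it is void. The difference from deep intronic regions, 0.144 points, was -0.332 with an overlap of 50%, -0.516 with identical intervals, -0.250 at over 200 bp from protein-coding starts, -0.328 without pericentric sequence and chromosomes 4 and Y, and -1.55 to 0.549 with each replicate left out.

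The share within 500 bp of an ncRNA gene start, -0.855 points, was 3.08 against the 2027 strongest peaks, 3.73 at over 200 bp from protein-coding starts, 0.141 for starts within 200 bp, 4.80 for the start of any transcript, and 0.838 to 8.18 with each replicate left out. It went further down, to -16.5 with 1 region per gene, -7.07 with identical intervals and -6.03 in genes under 10 kb. The exon difference, 3.54 points, was -14.7 with 1 region per gene, -3.90 in genes under 10 kb and 1.42 to 12.2 with each replicate left out. The DRE difference, 2.20 points, was 0 with 1 region per gene and in genes under 10 kb. The pericentric, 2R against 3L, GC and CTCF differences kept their signs in every alternative, as did the lower share of marked ncRNA gene starts. The 2R minus 3L difference, 14.1 points, ran from 7.63 with identical intervals to 17.1 with 1 region per gene. Arms 2R and 3L and the CTCF core were chosen after values in these same regions were seen. Their kept signs are thus no support. The gene-start difference was 3.07 to 7.25 points against lone and 6.82 to 13.3 against all protein-coding starts, with alternatives chosen after seeing the data. Leaving out the 5 genes with most regions, also chosen so, turned no sign not listed here. No paired analysis was possible because there was 1 group, so that no groups could be paired; region classes were compared within each replicate. With depth unknown, weak regions cannot be ranked by precision.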
